A study of Drosophila melanogaster with 9 samples.

Results

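The genes described here are 4 amino acid transporters linked to growth in *Drosophila*: *minidiscs* (*mnd*), *JhI-21*, *pathetic* (*path*) and *slimfast* (*slif*). They were taken by symbol from the 16492 rows of the raw counts table, and all 4 were found. The RNA came from wing imaginal discs of wandering larvae of the third instar, whose dissociated cells were sorted for GFP, in 3 genotypes with 3 libraries each. The labels give all 3 genotypes as *w*/+ with *dpp-gal4* and *uas-gfp*. STAT supercompetitors also carried *uas-hop*, which encodes the Janus kinase Hopscotch (libraries hop 1 to hop 3), Myc supercompetitors carried *uas-myc* (Myc 1 to Myc 3), and control cells had a wild-type chromosome in that place (gfp 1 to gfp 3). The driver is active in a stripe of anterior cells along the compartment boundary, so the cells come from that stripe and not from the whole disc. At least 60 discs were dissected per genotype in triplicate. Nothing further says how the triplicates were separated, so p-values measure the spread between these libraries.

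Amino acid transporters of the plasma membrane and of lysosomes supply the building blocks of protein synthesis, and amino acids in turn activate the kinase complex TORC1, which drives cell growth. Transporters of the LAT type in the SLC7 family are light chains that work as a pair with the heavy chain CD98hc. Many of them, though not all, carry large neutral amino acids such as leucine. Transporters of the CAT type in the same family carry cationic amino acids such as arginine, and SLC36 transporters couple amino acid transport to protons. *mnd* and *JhI-21* encode LAT-type light chains, *slif* a CAT-type transporter and *path* an SLC36 transporter. *mnd* is named for the small imaginal discs of its mutants, *slif* is known for nutrient sensing in the fat body, and *path* is known for growth control and for the growth of sensory dendrites.

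The libraries held 5110634 to 6104490 counts each, and 12741 genes passed the filter on low counts, all 4 transporters among them. The targeted genes matched the labels. *hop* was at 1145 to 1432 CPM (read counts scaled by library size with TMM factors, as edgeR's cpm gives them) in hop libraries, against 62.6 to 80.0 CPM in gfp libraries. *dm*, the gene for Myc, was at 538 to 774 CPM in Myc libraries, against 233 to 259 CPM in gfp libraries, and the counts do not separate transgene from endogenous transcripts. The JAK/STAT targets *Socs36E* (log2 0.94) and *dome* (0.80) were called higher in hop against gfp, and the nucleolar genes *Nop60B* (0.92) and *nop5* (0.55) in Myc against gfp. A principal component analysis on 500 variable genes put 60.5% of the variance on its first axis, where Myc 1 lay at 0.76 on a scale where the gfp mean is 0 and the hop mean is 1, and gfp 1 lay at 0.22. The other 2 Myc libraries lay at -0.23 and -0.06. Results that turn on these libraries are given with and without them.

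**Figure D1:**
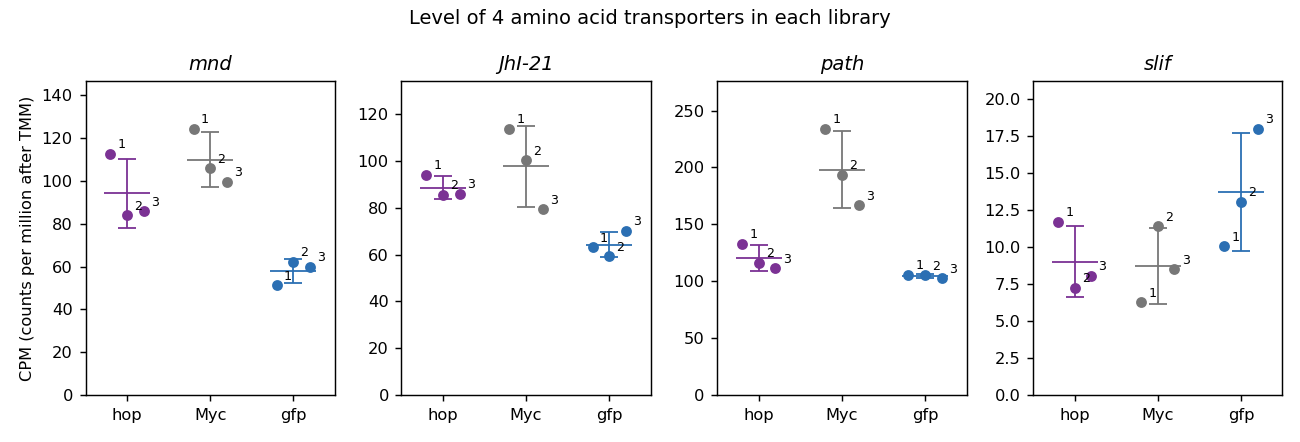
Level of *mnd*, *JhI-21*, *path* and *slif* in CPM (scaled with TMM factors) in the hop, Myc and gfp libraries. Points are libraries with their replicate number, and the horizontal line and bars give the mean and SD of 3 libraries. *mnd* and *JhI-21* were above all gfp libraries in every hop and Myc library, *path* was at 167 to 234 CPM in Myc libraries and at 103 to 133 CPM in the other 6, and *slif* overlapped between groups.

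*mnd* was higher in both kinds of supercompetitor than in control cells, *JhI-21* and *path* were called higher than control in Myc supercompetitors, and *slif* passed no test. The difference between hop and Myc was itself called for *path* and not for *JhI-21*. A gene is called where edgeR's quasi-likelihood test gives an adjusted p under 0.05 (Benjamini-Hochberg over the 12741 genes). Of the 4 transporters, 1 was called higher in hop against gfp, where 3.16% of all tested genes were called higher, and 0 were called lower, where 3.37% were called lower. Of the same 4, 3 were called higher in Myc against gfp, against 2.35% of all tested genes, and 0 lower, against 0.502%. Both comparisons use the same 3 gfp libraries, so they are not independent. The 4 genes were chosen with earlier results of these data known, so these shares are descriptions and no test of enrichment. Between hop and Myc, 0 of 4 were called higher in hop, against 3.35% of all genes, and 1 was called lower, against 3.19%. At an unadjusted p under 0.05 the counts by edgeR were 2 higher and 0 lower in hop against gfp, where *JhI-21* was added, 3 and 0 in Myc against gfp, and 0 and 1 in hop against Myc. Of the 12741 genes, at least 2951 in hop against gfp, 1762 in Myc against gfp and 3040 in hop against Myc reached that level. These numbers take both directions together, and counts at an unadjusted p are descriptions only, here and below. DESeq2 and limma-voom called none of the 4 in a direction where edgeR called 0. With 3 libraries against 3, an exact permutation test of a single gene cannot go below p = 0.1, so the tests rest on the model across all genes. The share of all tested genes whose groups do not overlap was not computed, so statements on overlap describe the libraries and are no test. For example, *path* did not overlap in hop against gfp but ranked 5119 by p among the 12741 genes.

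Among the light chains, *mnd* (FBgn0002778) lies on the forward strand of chromosome 3L at 14985100 to 14991667 (BDGP6), with 3 annotated transcripts, 2546 exon bases and no exon shared with another gene. It was at 113, 84.1 and 85.9 CPM in hop libraries, against 51.4, 62.3 and 59.9 CPM in gfp libraries, and these groups did not overlap. In Myc libraries it was at 124, 106 and 99.7 CPM, again above every gfp library. The highest hop library was hop 1 and the highest Myc library was Myc 1, and the lowest hop library, hop 2, was still above the highest gfp library, gfp 2. The means were 94.3 ± 16.1 CPM in hop, 110.0 ± 12.8 CPM in Myc and 57.9 ± 5.73 CPM in gfp libraries (SD, n = 3 each). The log2 fold change was 0.70 in hop against gfp (SE 0.150, 95% interval 0.38 to 1.02, 1.63-fold, edgeR adjusted p = 0.0133). For Myc against gfp it was 0.93 (SE 0.150, interval 0.61 to 1.24, 1.90-fold, edgeR adjusted p = 0.00296). The hop call ended when any single gfp library was left out, with edgeR adjusted p of 0.0534 without gfp 1, 0.0526 without gfp 2 and 0.0607 without gfp 3, at log2 fold changes of 0.62 to 0.76. The Myc call stood without each of the 9 libraries in turn, with adjusted p of at most 0.0279.

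*JhI-21* (FBgn0028425), named for its response to juvenile hormone, lies on the reverse strand of chromosome 2L at 12051755 to 12056042, with 5 transcripts and 2368 exon bases. Of its exon bases, 295 are shared with *PLCXD* on the opposite strand, and since the strand setting of the counting is not given in the sources used here, reads in that stretch cannot be assigned to either gene. It was at 94.3, 85.6 and 86.0 CPM in hop libraries, against 63.3, 59.4 and 70.2 CPM in gfp libraries, with no overlap. In Myc libraries it was at 114, 100.4 and 79.4 CPM, also with no overlap with gfp but spread more widely than in hop libraries. The means were 88.6 ± 4.87 CPM in hop, 97.9 ± 17.4 CPM in Myc and 64.3 ± 5.48 CPM in gfp libraries (SD, n = 3 each). The log2 fold change in hop against gfp was 0.46 (SE 0.146, interval 0.15 to 0.77, 1.38-fold), which missed the threshold (edgeR adjusted p = 0.0661). In Myc against gfp it was 0.60 (SE 0.146, interval 0.30 to 0.91, 1.52-fold, edgeR adjusted p = 0.0331). Neither call was stable. Without Myc 1, the hop difference passed (log2 0.50, edgeR adjusted p = 0.0201) and the Myc difference did not (log2 0.51, edgeR adjusted p = 0.0813). The Myc call was also lost without Myc 2 (0.0836), gfp 1 (0.146), gfp 2 (0.193) or gfp 3 (0.0741), all edgeR adjusted p, while the log2 fold change stayed between 0.51 and 0.74.

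*CD98hc*, the heavy chain that the light chains need to reach the plasma membrane, was at 126, 138 and 129 CPM in hop libraries, against 97.3, 103 and 96.3 CPM in gfp libraries. In Myc libraries it was at 132, 158 and 117 CPM. Every hop and Myc library was above every gfp library, but neither difference passed the test, with a log2 fold change of 0.40 in hop (interval 0.14 to 0.67, edgeR adjusted p = 0.0646) and 0.45 in Myc (interval 0.18 to 0.72, edgeR adjusted p = 0.0709). DESeq2 called both (log2 0.44 and 0.47, DESeq2 adjusted p of 0.0355 and 0.0284). Over 19 alternatives the hop difference of *CD98hc* was called under 5, among them without Myc 1 (edgeR adjusted p = 0.0268) and without Myc 2 (0.0362), and the Myc difference under 4, among them without Myc 3 (0.0491). The other LAT-type light chains did not share one pattern. *CG1607* was at 147, 143 and 153 CPM in hop libraries, against 92.0, 89.4 and 98.0 CPM in gfp libraries, and was called higher there (log2 0.66, edgeR adjusted p = 0.00981). In Myc libraries *CG1607* was at 107, 116 and 81.8 CPM and overlapped gfp (log2 0.12, edgeR adjusted p = 0.776), and the difference between hop and Myc itself was called (log2 0.54, edgeR adjusted p = 0.0243). The hop call of *CG1607* was lost without gfp 2 (edgeR adjusted p = 0.0687), and the call between hop and Myc was lost without hop 1, hop 2, hop 3 or Myc 3 and in the fit on those 6 libraries, with adjusted p of at most 0.126. *gb* and *sbm*, which are known from glia, passed no test, with log2 fold changes of 0.42 and -0.48 in hop and 0.56 and -0.77 in Myc against gfp.

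**Figure D2:**
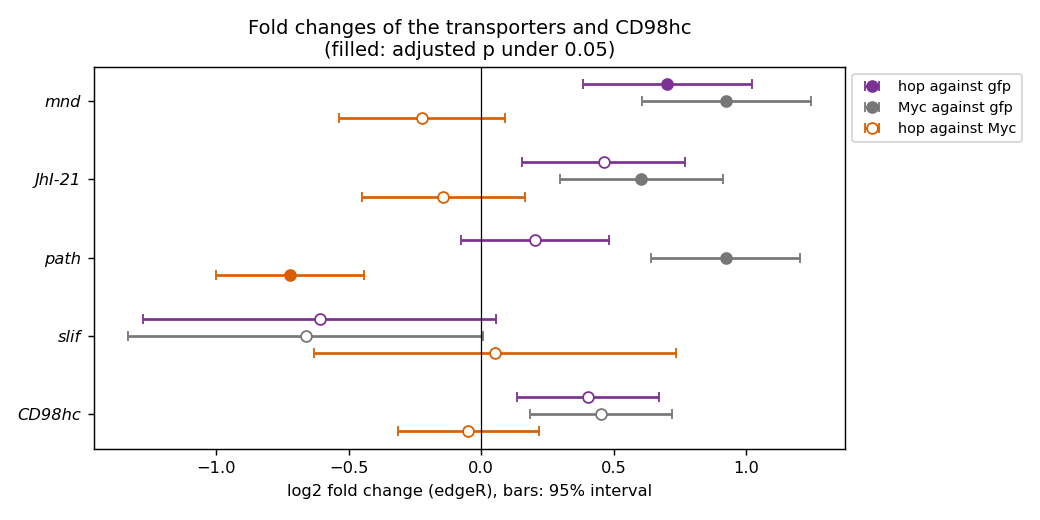
Log2 fold changes of the 4 transporters and *CD98hc* from edgeR for each supercompetitor against gfp and for hop against Myc, with bars for the 95% interval and filled points where the adjusted p was under 0.05. *mnd* was filled in both comparisons with gfp, *path* in Myc against gfp (0.92) and in hop against Myc (-0.72), and the intervals of *slif* were the widest of the 5 genes.

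*path* (FBgn0036007) lies on the reverse strand of chromosome 3L at 9494555 to 9505328, with 3 transcripts, 3195 exon bases and no exon shared with another gene. It was at 234, 194 and 167 CPM in Myc libraries, against 106, 105 and 103 CPM in gfp libraries. In hop libraries it was at 133, 116 and 112 CPM. Every Myc library was above every hop library, and every hop library was above every gfp library, with 6.08 CPM between the nearest hop and gfp libraries. The gfp libraries lay close together, with a mean of 104.5 ± 1.64 CPM, against 120.3 ± 11.2 CPM in hop and 198 ± 33.7 CPM in Myc libraries (SD, n = 3 each). In Myc against gfp the log2 fold change was 0.92 (SE 0.132, interval 0.64 to 1.20, 1.90-fold, edgeR adjusted p = 0.00169), which ranked 23 by p among the 12741 genes. In hop against gfp it was 0.20 (SE 0.132, interval -0.08 to 0.48, 1.15-fold, edgeR adjusted p = 0.361), so a change of up to 1.40-fold is within the interval. The difference between hop and Myc itself was called, at a log2 fold change of -0.72 (SE 0.132, interval -0.999 to -0.44, edgeR adjusted p = 0.00504). Without Myc 1 the fold changes of *path* were 0.81 in Myc against gfp (edgeR adjusted p = 0.00129) and -0.57 in hop against Myc (edgeR adjusted p = 0.00525).

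None of the other 10 measured SLC36 genes was called by edgeR in any of the 3 comparisons with all 9 libraries. Without Myc 1, edgeR called 3 of the 11 lower in hop against Myc, *path* among them, and 1 lower in hop against gfp. The fit on 6 libraries and the replicate block also called 1 lower in hop against gfp. Under each of these settings more of all tested genes were called in hop against gfp too, as given in the last section. A share of all genes was not computed for these settings, so these counts are descriptions and no result about the family. With all 9 libraries, an unadjusted p under 0.05 was reached in hop against gfp by 1 on the higher and 3 on the lower side. DESeq2 called 1 lower there and limma-voom 0. *CG13384*, the next most abundant of them, averaged 45.0 ± 4.53 CPM in hop, 49.1 ± 8.23 CPM in Myc and 48.6 ± 9.42 CPM in gfp libraries (SD, n = 3 each). *CG8785* averaged 8.72 ± 1.002 CPM in hop and 20.4 ± 6.07 CPM in gfp libraries without overlap (SD, n = 3 each), with a log2 fold change of -1.23 that missed the threshold (edgeR adjusted p = 0.106). *CG7888* averaged 10.6 ± 1.56 CPM in hop and 17.4 ± 3.61 CPM in gfp libraries (SD, n = 3 each), with a log2 fold change of -0.71 (edgeR adjusted p = 0.0906). *CG1139* (*arcus*) lay on the other side of gfp, at 11.1 ± 3.21 CPM in hop and 6.07 ± 1.14 CPM in gfp libraries (SD, n = 3 each, log2 0.86, edgeR adjusted p = 0.124). *CG32079* averaged 0.544 ± 0.334 CPM in hop and 1.98 ± 0.788 CPM in gfp libraries (SD, n = 3 each, log2 -1.84, edgeR adjusted p = 0.164). The other 5, *CG4991*, *CG12943* (*polyph*), *CG16700*, *CG32081* and *CG43693*, had log2 fold changes between -0.46 and 0.37 in hop and between -0.24 and 0.85 in Myc against gfp. Over the 11 SLC36 genes including *path* the median was -0.10 in hop and 0.04 in Myc against gfp on the log2 scale, beside -0.02 and -0.04 over all tested genes.

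*slif* (FBgn0037203) lies on the forward strand of chromosome 3L at 22881045 to 22893821, with 3 transcripts, 3140 exon bases and no exon shared with another gene. It was the least abundant of the 4, with 35 to 117 counts per library, and counting error is correspondingly larger. It was at 11.7, 7.24 and 8.06 CPM in hop libraries, against 10.1, 13.0 and 18.0 CPM in gfp libraries. In Myc libraries it was at 6.25, 11.4 and 8.47 CPM. Both groups overlapped gfp through gfp 1, the lowest gfp library, which hop 1 and Myc 2 exceeded. The log2 fold change was -0.61 in hop against gfp (SE 0.314, interval -1.28 to 0.06, edgeR adjusted p = 0.244) and -0.66 in Myc against gfp (SE 0.316, interval -1.33 to 0.01, edgeR adjusted p = 0.363). Between hop and Myc it was 0.05 (interval -0.63 to 0.74, edgeR adjusted p = 0.937), and this sign turned when hop 1 or Myc 1 was left out.

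Of the other CAT-type genes, *CG5535* was called. It was at 27.7, 28.7 and 24.1 CPM in Myc libraries, against 15.7, 12.5 and 13.2 CPM in gfp libraries (log2 0.96, edgeR adjusted p = 0.0196), and at 14.3, 16.8 and 14.7 CPM in hop libraries (log2 0.14, edgeR adjusted p = 0.718). The hop libraries were all below the Myc libraries (log2 -0.81, edgeR adjusted p = 0.0322). The Myc call of *CG5535* was lost without Myc 2, gfp 1, gfp 2 or gfp 3, and the call between hop and Myc was lost without any 1 hop library, Myc 2, Myc 3, gfp 2 or gfp 3, with edgeR adjusted p of at most 0.133 and 0.117 over all alternatives. *CG7255*, *CG12531* and *CG13248* passed no test in any comparison, with log2 fold changes between -0.34 and 0.78 in hop and between -0.18 and 0.42 in Myc against gfp. Over the 10 SLC7 genes, 2 were called higher in hop (*mnd* and *CG1607*, beside 3.16% of all tested genes) and 3 in Myc (*mnd*, *JhI-21* and *CG5535*, beside 2.35%) against gfp, and 0 lower, with medians of 0.44 and 0.33 on the log2 scale. At an unadjusted p under 0.05, 0 were lower in hop and 1 in Myc, and DESeq2 and limma-voom called 0 lower. The 2 calls in hop became 1 without gfp 1 or gfp 3, 0 without gfp 2 and 4 without gfp 1 and Myc 1 together, and the 3 in Myc became 1 without Myc 2, gfp 1, gfp 2 or gfp 3. Over all tested genes, fewer were also called in hop against gfp without gfp 2. More were called there without gfp 1 and Myc 1 together, as given in the last section.

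Between hop and Myc, *mnd* and *JhI-21* did not pass the test of the difference. The log2 fold change of *mnd* in hop against Myc was -0.22 (interval -0.54 to 0.09, edgeR adjusted p = 0.374), and that of *JhI-21* was -0.14 (interval -0.45 to 0.16, edgeR adjusted p = 0.577). For both genes the hop and Myc libraries overlapped. These intervals leave room for a difference of up to 1.45-fold for *mnd* and 1.36-fold for *JhI-21* towards Myc, and do not show that the genotypes act alike. *path*, of which every hop library was below every Myc library, was the 1 of 4 called in this comparison.

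**Figure D3:**
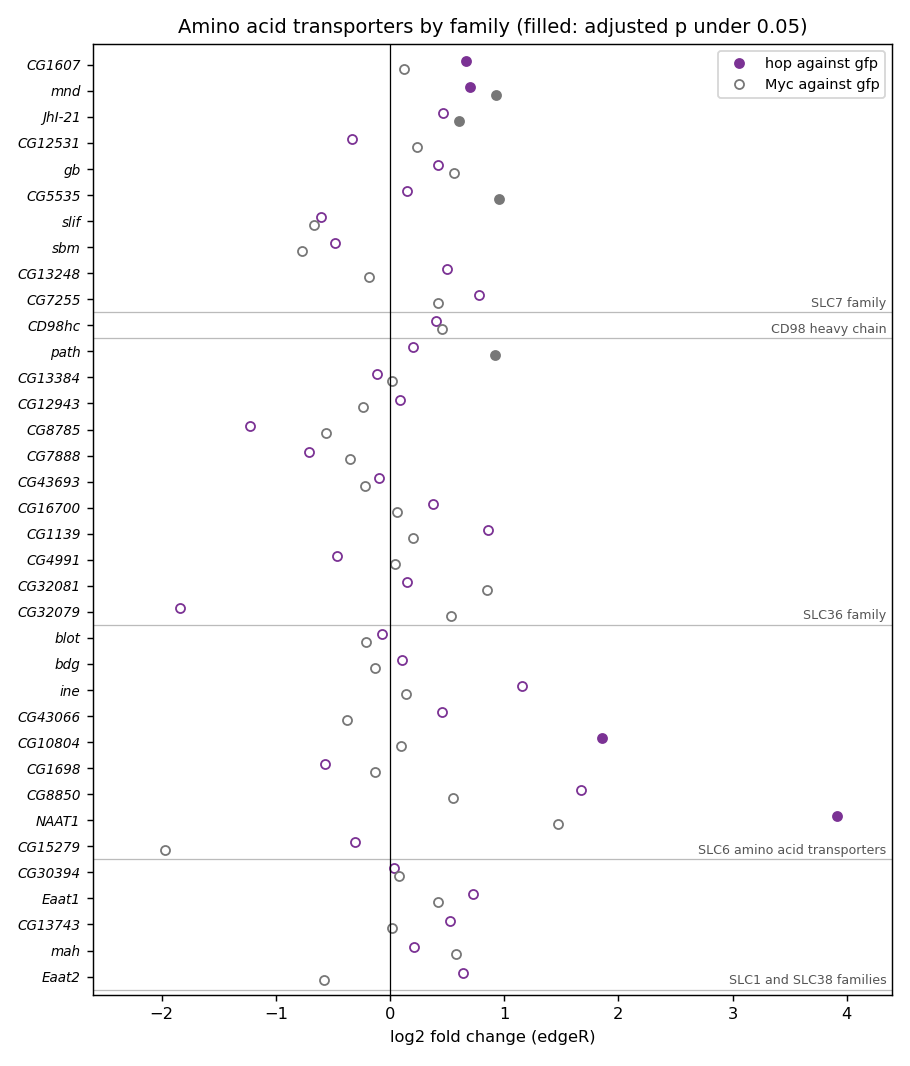
Log2 fold changes in hop against gfp and Myc against gfp for the 36 tested amino acid transporters, grouped by family and ordered by mean level within each family, with filled points where edgeR's adjusted p was under 0.05. In hop the filled points are *CG1607*, *mnd*, *CG10804* and *NAAT1*, and in Myc they are *mnd*, *JhI-21*, *CG5535* and *path*.

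Levels between genes were compared per kilobase of exon. In gfp libraries *path* was at 32.7 ± 0.513, *JhI-21* at 27.2 ± 2.32, *mnd* at 22.7 ± 2.25 and *slif* at 4.36 ± 1.27 CPM per kb (SD, n = 3). In hop libraries *path* (37.7 ± 3.50), *JhI-21* (37.4 ± 2.05) and *mnd* (37.0 ± 6.34) were level within their spread, and *slif* was at 2.87 ± 0.758 CPM per kb (SD, n = 3). In Myc libraries *path* was at 62.0 ± 10.6, *mnd* at 43.2 ± 5.04, *JhI-21* at 41.3 ± 7.33 and *slif* at 2.77 ± 0.820 CPM per kb (SD, n = 3), with *mnd* and *JhI-21* within each other's spread. Percentiles were taken among the tested genes with a known exon length, so genes removed by the filter on low counts are not in them. By this scale the first 3 genes stood between the 82.0th and 94.9th percentile in the 3 genotypes, and *slif* between the 17.0th and 27.5th. Among 37 amino acid transporters by this measure *path* ranked 1 in Myc, 3 in hop and 2 in gfp libraries. *mnd* ranked 3 in Myc, 5 in hop and 6 in gfp libraries, and *CD98hc* ranked 2 in Myc and 1 in hop and gfp libraries.

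The 4 genes held 34.0% to 39.2% of the summed transporter level per kilobase in Myc libraries, against 25.7% to 27.4% in gfp libraries, without overlap. In hop libraries they held 26.9% to 30.0%, which overlapped gfp. The summed level of the 5 LAT-type light chains was 123 to 141 CPM per kb in hop and 108 to 143 CPM per kb in Myc libraries, against 86.8 to 91.1 CPM per kb in gfp libraries. *mnd* and *JhI-21* made up 54.2% to 59.6% of that sum in hop, 64.4% to 67.9% in Myc and 53.5% to 58.4% in gfp libraries. These sums are descriptions of these libraries and were not tested.

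Over all 37 listed amino acid transporters, of which 36 passed the filter, 4 were called higher (11.1%, beside 3.16% of all tested genes) and 0 lower (beside 3.37%) in hop against gfp. In Myc against gfp 4 were also called higher (11.1%, beside 2.35%) and 0 lower (beside 0.502%). The median log2 fold change was 0.21 in hop and 0.09 in Myc, beside -0.02 and -0.04 over all tested genes. The list was chosen with earlier results of these data known, so these shares are no test of enrichment. Of the SLC6 family, *NAAT1* averaged 8.75 ± 2.22 CPM in hop and 0.559 ± 0.0507 CPM in gfp libraries (SD, n = 3 each, log2 3.91, edgeR adjusted p = 0.00154), with 3, 3 and 4 counts in the gfp libraries. *CG10804* averaged 29.3 ± 8.98 CPM in hop and 8.10 ± 2.65 CPM in gfp libraries (SD, n = 3 each, log2 1.86, edgeR adjusted p = 0.0179). Neither was called in Myc against gfp, and both were called higher in hop against Myc. *NAAT1* had 37 to 59 counts in hop and 2 to 16 in Myc libraries, so it passed the filter on low counts through the hop libraries, where it is high, and its call is not independent of that filter. With at least 10 counts required in every library it was not tested, and 3 of 31 transporters, in place of 4 of 36, were called higher in hop against gfp. In hop against Myc 2 were then called higher and 2 lower, in place of 3 and 2. The call of *CG10804* in hop against gfp was lost without hop 3, gfp 2 or gfp 3 (edgeR adjusted p of at most 0.107). In hop against Myc *CG10804* was lost in the fit on those 6 libraries and without hop 1, hop 3, Myc 2 or Myc 3 (edgeR adjusted p of at most 0.0982), and *NAAT1* without hop 1 (0.0504). None of the 5 SLC1 and SLC38 genes was called by edgeR, DESeq2 or limma-voom in any comparison, and 1 was higher in hop against gfp at an unadjusted p under 0.05. Over all 36 tested, 10 were higher and 3 lower in hop against gfp at that level, and 7 higher and 2 lower in Myc against gfp. The count called in hop against gfp was 1 without gfp 2, 2 without gfp 3, 7 without Myc 2 and 9 without Myc 1, and that in Myc against gfp was 2 without Myc 2, gfp 1, gfp 2 or gfp 3. Over all tested genes, fewer were also called in hop against gfp without gfp 2 and more without Myc 1, as given in the last section. Under DESeq2 with all 9 libraries, 9 transporters (8 higher and 1 lower) were called in hop against gfp in place of 4, *JhI-21* among them (log2 0.49, DESeq2 adjusted p = 0.0403).

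Of 21 genes of the TORC1 pathway, on which amino acids act, 2 were called higher in hop against gfp (9.52%, beside 3.16% of all tested genes) and 0 in Myc against gfp (beside 2.35%), with 0 lower in either. At an unadjusted p under 0.05, 4 were higher and 1 lower in hop and 3 higher and 0 lower in Myc, and DESeq2 called 3 higher in hop and 1 in Myc. *Thor*, which encodes the translation inhibitor 4E-BP, was at 24.9, 17.8 and 26.1 CPM in hop libraries, against 10.6, 10.6 and 12.4 CPM in gfp libraries (log2 1.03, edgeR adjusted p = 0.0192). In Myc libraries *Thor* was at 16.3, 19.2 and 22.8 CPM, above every gfp library, without passing (log2 0.79, edgeR adjusted p = 0.102). Its difference between hop and Myc did not pass either (log2 0.24, edgeR adjusted p = 0.553). *Sesn*, which encodes Sestrin, an inhibitor of TORC1 with relatives in mammals that bind leucine, was at 86.5, 67.1 and 104.6 CPM in hop libraries, against 52.9, 51.3 and 56.4 CPM in gfp libraries (log2 0.68, edgeR adjusted p = 0.0367), and 3097 of its exon bases are shared with *CG46429*. The call of *Thor* was lost without hop 3 or any 1 gfp library, and that of *Sesn* without hop 1, hop 3 or any 1 gfp library, with edgeR adjusted p of at most 0.0941 and 0.162. *Tor* and *S6k* were not called by edgeR in either comparison, with log2 fold changes of -0.21 and 0.39 in hop and -0.12 and 0.30 in Myc against gfp. *S6k* was above every gfp library in all hop and Myc libraries, with edgeR adjusted p of 0.0623 in hop and 0.258 in Myc. *Tor* was below every gfp library in all hop libraries (edgeR adjusted p = 0.322) and overlapped gfp in Myc libraries.

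The cytosolic aminoacyl-tRNA synthetases, which charge tRNAs with amino acids for translation, include 20 measured genes. In Myc against gfp, 5 of them were called higher (25%, beside 2.35% of all tested genes), 0 lower and 15 neither, all 20 had a log2 fold change above 0, and the median was 0.33, beside -0.04 over all genes. In hop against gfp 0 were called higher and 1 lower (5%, beside 3.37%), 19 did not pass, and 12 of 20 were above 0. *TyrRS* averaged 65.7 ± 3.15 CPM in Myc and 34.9 ± 2.56 CPM in gfp libraries (SD, n = 3 each, log2 0.91, edgeR adjusted p = 0.0038). *LeuRS*, the enzyme for leucine, averaged 172 ± 16.4 CPM in Myc and 112 ± 3.36 CPM in gfp libraries (SD, n = 3 each, log2 0.62, edgeR adjusted p = 0.00779). *IleRS* (0.54) and *HisRS* (0.79) were called as well, with edgeR adjusted p of 0.0244 and 0.0312. *CysRS* was lower in hop, at 42.5 ± 3.08 CPM against 72.4 ± 10.1 CPM in gfp libraries (SD, n = 3 each, log2 -0.77, edgeR adjusted p = 0.0121). In hop against Myc 5 of 20 synthetases were called lower (25%, beside 3.19%), 0 higher and 15 neither, with a median of -0.38. This list, like the others, was chosen with earlier results of these data known, so the shares are descriptions. At an unadjusted p under 0.05, 10 were higher in Myc against gfp and 0 lower, 0 were higher and 2 lower in hop against gfp, and 11 were lower in hop against Myc and 0 higher, and neither DESeq2 nor limma-voom added a call in the directions at 0. The 5 calls in Myc against gfp became 3 without Myc 1, 2 without Myc 2 or gfp 3 and 1 without gfp 1 or gfp 2, and the 5 in hop against Myc became 3 without hop 1, 1 without hop 3 and 2 without Myc 2. *TyrRS* stayed called in Myc against gfp throughout. *CysRS* lost its call in hop against gfp without hop 2, hop 3, gfp 2 or gfp 3 (edgeR adjusted p of at most 0.0861).

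Across the 9 libraries the levels of *mnd* and *JhI-21* varied together, with a Pearson r of 0.92 for log2 CPM. The value was 0.82 for *mnd* and *path* and 0.80 for *JhI-21* and *path*, and -0.49 to -0.54 for *slif* with the other 3. The 9 libraries fall into 3 genotypes and share their depth and scaling, so these values describe mainly the differences between genotypes. By the same measure among 12732 genes, the genes most like *mnd* were *bol* (0.943), *Inos* (0.939) and *CG9380* (0.935). Those most like *JhI-21* were *CG14946* (0.952), *RpL3*, a ribosomal protein (0.949), and *ras*, which encodes IMP dehydrogenase of guanine nucleotide synthesis (0.947). Those most like *path* were *CG3942* (0.986, a gene with a mean of only 1.28 CPM), the helicase gene *Hlc* (0.971) and *dm* (0.966). *CG3942* had a log2 fold change of 7.31 in Myc against gfp, so it was close to absent in gfp libraries. It reached the mean of 1 CPM mainly through the Myc libraries, where it is high, and its r is not independent of that cut. For *slif* they were *CG12007* (0.944), *CG9522* (0.942) and *CG31817* (0.919).

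**Figure D4:**
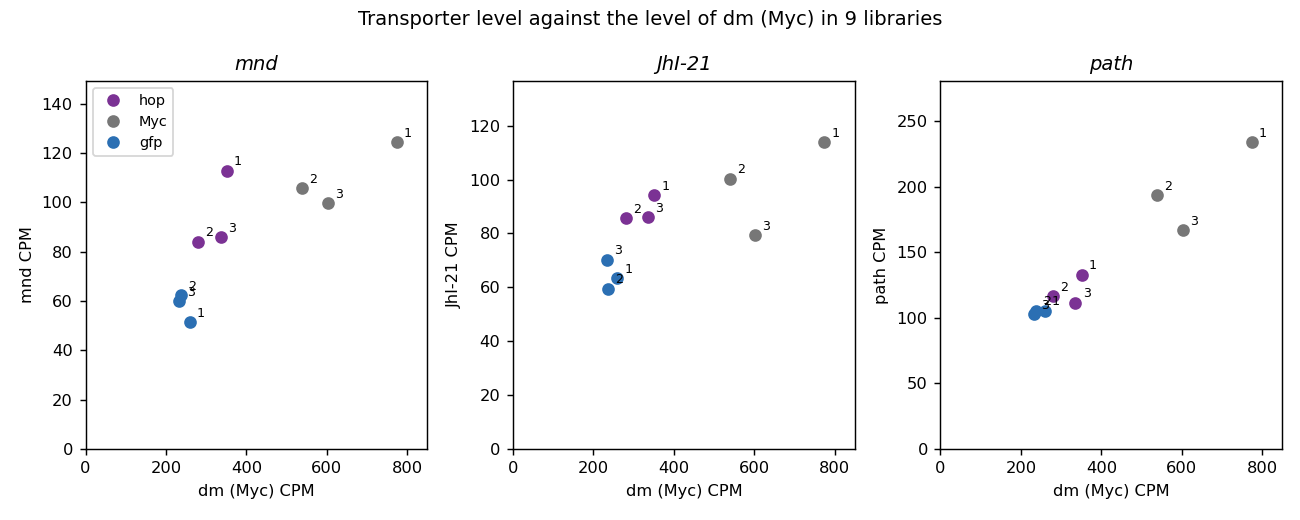
Level of *mnd*, *JhI-21* and *path* against the level of *dm*, the gene for Myc, both in CPM, in the 9 libraries, coloured by genotype and marked with the replicate number. Myc 1 had the highest level of *dm* (774 CPM) and of all 3 transporters, and the gfp libraries lay at the low end of *dm*, at 233 to 259 CPM.

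*dm* itself was at 351, 280 and 336 CPM in hop libraries, against 259, 237 and 233 CPM in gfp libraries, without overlap but below the threshold (log2 0.41, edgeR adjusted p = 0.0762). In Myc libraries *dm* was at 774, 538 and 602 CPM (log2 1.39 against gfp, edgeR adjusted p = 7.99e-05). Within the Myc libraries Myc 1 had the highest *dm*, *mnd*, *JhI-21* and *path* and the lowest *slif*. Within the hop libraries hop 1 had the highest *dm* and the highest level of all 4 transporters. Within the gfp libraries gfp 1 had the highest *dm* and *path* but the lowest *mnd* and *slif*. Between the other hop libraries, hop 3 had more *dm* than hop 2 but less *path*. Myc 2 had less *dm* than Myc 3 but more *mnd*, *JhI-21* and *path*, so the order of the libraries was not the same throughout.

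Markers of the cells in the sort were checked beside these values. Markers of the disc epithelium of the *dpp* domain summed to 2394 to 2956 CPM in hop and 2250 to 2286 CPM in Myc libraries, against 2209 to 2470 CPM in gfp libraries. Of these 6 markers, *ci* was called higher in hop against gfp (log2 0.43, edgeR adjusted p = 0.0337) at 1441 ± 203 CPM in hop and 1069 ± 91.8 CPM in gfp libraries (SD, n = 3 each), while *dpp* and *vg* were below every gfp library in hop without passing (log2 -0.27 and -0.22). In hop against Myc 2 of 6, *ci* and *nub*, were called higher. In bulk samples fewer cells of a type and less RNA per cell cannot be told apart. The posterior markers *en*, *inv* and *hh* summed to 94.6 to 112.5 CPM in hop and 72.0 to 82.7 CPM in Myc libraries, against 122 to 133 CPM in gfp libraries, and 1 of 3 (*inv*) was called lower in Myc against gfp. Tracheal markers summed to 260 to 286 CPM in hop and 187 to 248 CPM in Myc libraries, against 204 to 251 CPM in gfp libraries, with 1 of 4 called higher in hop against gfp. Fat body markers, of which 4 of 5 were found in the table, summed to 16.5 to 28.6 CPM in hop and 27.3 to 33.6 CPM in Myc libraries, against 24.4 to 28.7 CPM in gfp libraries, and 0 of 4 were called against gfp by edgeR (in hop 1 higher and 1 lower at an unadjusted p under 0.05, and 1 lower by DESeq2). Without Myc 1, edgeR called 1 of them higher and 1 lower in hop against gfp, where more of all tested genes were also called. Hemocyte markers summed to 70.4 to 82.5 CPM in hop and 62.8 to 73.8 CPM in Myc libraries, against 70.1 to 80.7 CPM in gfp libraries, with 1 of 4 tested called higher and 1 lower in hop against gfp. Muscle precursor markers summed to 138 to 179 CPM in hop and 103 to 147 CPM in Myc libraries, against 116 to 155 CPM in gfp libraries, with 1 of 5 called higher and 1 lower in hop against gfp. Of all tested genes, 3.16% were called higher and 3.37% lower in hop against gfp. In Myc against gfp 0.502% were called lower, and in hop against Myc 3.35% were called higher and 3.19% lower. In hop against Myc edgeR also called 1 of 4 fat body markers lower and 1 of 4 tracheal markers higher. None of the posterior, hemocyte or muscle precursor markers was called there. The part of these markers in the transporter differences was not tested.

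**Figure D5:**
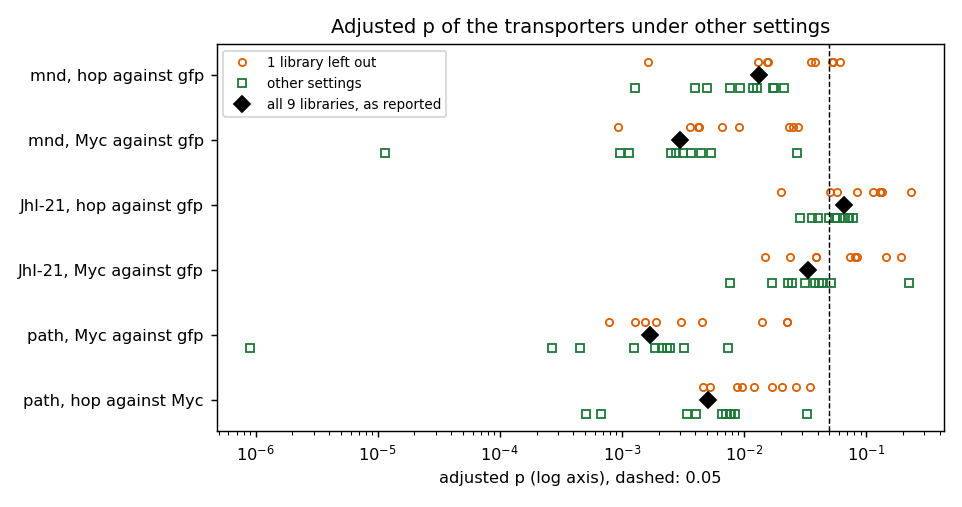
Adjusted p, on a log axis, of 6 transporter differences with all 9 libraries (diamonds), with 1 library left out in turn (circles) and under 10 other settings (squares), with a dashed line at 0.05. *mnd* and *path* in Myc against gfp and *path* in hop against Myc stayed below 0.05 throughout, *mnd* in hop against gfp lay above it when gfp 1, gfp 2 or gfp 3 was left out, and *JhI-21* lay on both sides in each comparison with gfp.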

How the data were processed

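Libraries of FACS-sorted wing disc cells were sequenced as paired-end reads. The authors aligned the reads with STAR, removed PCR duplicates with Picard, which can compress the highest counts, and counted reads with HTSeq (build dm6, BDGP6). The raw table holds the counts deposited by the authors, which were used here. The second deposited table holds the same kind of reads divided by size factors (normalized signal). Multiplied back, 99.96% of its values were whole reads to within 0.02, and it served as an alternative. In it *mnd* and *slif* had the same reads as the raw table in all 9 libraries, *path* in 8 and *JhI-21* in 6, with a difference of at most 2 reads.

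Counts were tested in edgeR 4.0.16 (R 4.3.3) with filterByExpr, TMM, robust quasi-likelihood fits over all 9 libraries (6 residual degrees of freedom), with p adjusted after Benjamini and Hochberg. CPM values use the same scaling. The study used DESeq2, which is an alternative here (version 1.42.0). Other alternatives were limma-voom (limma 3.58.1), RLE scaling, 2 other filters, fits on 6 libraries, a block for the replicate number, the recovered reads, and each library left out. Non-robust dispersion, and leaving out gfp 1 and Myc 1 together, were chosen after seeing the data. The test was tried on simulated data with known fold changes for hop against gfp, in sets of 66 or 67 genes. The changed genes were drawn from all tested genes with a mean of at least 1 CPM, and were fewer than the genes called in the data. Recovery was 7.46% at a simulated difference of 1.5-fold, 31.3% at 2-fold and 69.7% at 4-fold. These rates average over many levels of expression and are not rates for the 4 transporters. Calls also fell on 3 genes simulated without a difference. Most simulated differences of 1.5-fold or 2-fold were missed, so the lack of a call does not show that a gene is unchanged.

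The members and gene lists were chosen with earlier results of these data known. Named are the 4 transporters, measured SLC7, CD98hc and SLC36 genes with a mean of at least 1 CPM, up to 4 called genes of each other list in each comparison, the 3 genes most like each member, and 6 genes that check the labels. *Tor*, *S6k* and single cell type markers were named outside that rule, after their values were seen. *IleRS* in hop against Myc was also named outside it, because all called differences of these lists were flagged there. Of 16492 symbols 11947 matched the annotation as they stand, 4223 as synonyms and 322 did not. Intervals are 95%. The polyA label and the total RNA of the study's methods differ, and no sequence is printed.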

Additional observations from a re-analysis of the deposited data

Results flagged for a closer look

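The hop and Myc effects on *path* differed by -0.72 on the log2 scale in the test of the difference itself (edgeR adjusted p = 0.00504), with every hop library below every Myc library. Among the other transporters the same test gave 0.54 for *CG1607*, -0.81 for *CG5535*, 2.44 for *NAAT1* and 1.76 for *CG10804*, with edgeR adjusted p of 0.0243, 0.0322, 0.0105 and 0.0208. In the TORC1 list it gave 0.70 for *Sesn* (edgeR adjusted p = 0.0350). Among the synthetases it gave -0.99 for *CysRS*, -0.46 for *IleRS*, -0.53 for *LeuRS*, -0.98 for *TrpRS* and -0.72 for *TyrRS*, with edgeR adjusted p between 0.00226 and 0.0355. Of the alternatives tried for this difference, *path* was called under all 19, *CysRS* under 19 of 19, *TyrRS* under 18, *TrpRS* under 16, *LeuRS* under 15, *CG1607* and *CG10804* under 14, *Sesn* under 12 (edgeR adjusted p of at most 0.167), *CG5535* under 11 and *IleRS* under 9, and *NAAT1* under 17 of 18. Positive values are higher in hop than in Myc libraries. *NAAT1* passed the filter on low counts through the hop libraries, so its call is not independent of that filter.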

How the results depend on the processing

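Of 228 alternative values for the 4 transporters, 210 kept their direction and their side of the threshold, 5 newly passed it, 10 no longer passed it and 3 changed sign, all 3 for *slif* in hop against Myc. *mnd* and *path* in Myc against gfp and *path* in hop against Myc were called under all 19 alternatives. With 1 library left out, log2 fold changes ranged from 0.58 to 0.82 for *mnd* in hop against gfp, from 0.41 to 0.55 for *JhI-21* in hop against gfp, from 0.51 to 0.74 for *JhI-21* in Myc against gfp and from -0.17 to 0.30 for *slif* in hop against Myc. *slif* in hop against Myc was at -0.17 without hop 1, -0.13 without Myc 1 and -0.13 without gfp 1 and Myc 1 together, and uncalled each time. *JhI-21* in hop against gfp newly passed with DESeq2 (0.49), with the 6 libraries compared (0.47), and without gfp 1 and Myc 1 together (0.49). *JhI-21* in Myc against gfp no longer passed with limma-voom (0.58) or without gfp 1 and Myc 1 together (0.50). The cause was not tested.

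Transporters called in hop against gfp numbered 4, and 9 with DESeq2, 9 with the 6 libraries compared, 9 without gfp 1 and Myc 1 together, and 1 to 9 with a library left out. In Myc against gfp they numbered 4, and 2 without gfp 1 and Myc 1 together, and 2 to 5 with a library left out. In hop against Myc they numbered 5, and 2 with the 6 libraries compared, 10 without gfp 1 and Myc 1 together, and 1 to 10 with a library left out. Genes called in hop against gfp numbered 831, and 1368 with DESeq2, 1676 with the 6 libraries compared, 1876 without gfp 1 and Myc 1 together, and 140 to 1948 with a library left out (the fewest without gfp 2, the most without Myc 1). In Myc against gfp they numbered 364, and 578 with DESeq2, 184 without gfp 1 and Myc 1 together and 124 to 467 with a library left out. In hop against Myc they numbered 834, and 311 with the 6 libraries compared, 2490 without gfp 1 and Myc 1 together and 270 to 2519 with a library left out.

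The replicate numbers were taken as names only. Same-numbered libraries correlated at -0.14 to 0.39, and every such pair except hop 3 and Myc 3 was above 0. Differently numbered libraries correlated at -0.34 to 0.22, and not every library correlated best with its own number. Whether equal numbers mark a shared preparation was not tested. With the replicate block *JhI-21* in hop against gfp was at 0.46 (edgeR adjusted p = 0.0363), *CD98hc* was called in hop and in Myc against gfp (adjusted p of 0.0305 and 0.0361), transporters called numbered 9 in hop against gfp, 5 in Myc against gfp and 8 in hop against Myc, and genes called numbered 1692, 584 and 1761 in the same order. Of 416 alternative values for other named genes that were called, 328 stayed called and 88 no longer passed, with no change of sign.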
